A study of Mus musculus with 4 samples.

Results

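The lysosome and autophagy genes examined here are 35 mouse genes, chosen by symbol and matched to the Ensembl identifiers of the deposited table, which lists 46603 genes. The rule used symbols only, though earlier results of these data were known when the genes were chosen. Each of the 35 symbols matched 1 identifier, and all 35 genes passed the filter on low counts that left 13001 genes for testing. They comprise 10 lysosomal proteases, 6 glycosidases, 4 genes of lipid handling, 5 membrane proteins, 2 transcription factors of the TFE family, 4 genes for an autophagy receptor and Atg8-family proteins, and 4 genes of autophagy initiation and conjugation.

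The RNA came from whole livers of 4 male HuRflox/flox mice on the C57BL/6J background, 2 in each group, and the study asked what loss of HuR from hepatocytes does to a fatty liver. HuR is an RNA-binding protein encoded by Elavl1. The 2 controls had received AAV8 carrying GFP through the tail vein, and the 2 mice labelled HuRhKO had received AAV8 carrying Cre, each vector driven by the hepatocyte promoter TBG. All 4 mice were then kept for 4 weeks on WDSW, a Western diet with 42% of its calories from fat and 0.1% cholesterol, together with water holding 23.1 g/L fructose and 18.9 g/L glucose. The mice were age-matched, their age is not given in the sources used here, and no group on a standard diet was analysed here. The TBG promoter limits Cre to hepatocytes, whereas the RNA came from all cells of the liver. In whole liver, fewer cells of a type and less RNA per cell cannot be told apart.

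The 4 libraries held 13032095 to 19715577 counts, with 6.56% to 7.64% of them from mitochondrial genes. A floor of 3 counts corresponded to 0.159 to 0.226 CPM (counts scaled to a common library total), far under the lowest member value of 4.55 CPM. Counts over the whole of the targeted gene were not lower in the libraries labelled HuRhKO. Elavl1 stood at 28.4 and 25.9 CPM in the 2 control livers, and at 37.7 and 34.4 CPM in the 2 libraries labelled HuRhKO. Its fitted log2 fold change was 0.41 (SE 0.135, edgeR adjusted p = 0.545), with higher values in both libraries labelled HuRhKO. These counts cover the whole gene, so they do not resolve the floxed exons. Every direction below follows the labels as deposited.

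Lysosomes are acidic organelles in which proteases, glycosidases and lipases take apart material delivered by endocytosis or by autophagy. In autophagy, a kinase complex and a conjugation system build a double membrane marked by lipid-linked Atg8-family proteins, which then fuses with lysosomes. TFEB and TFE3 are transcription factors that bind E-box letters in the promoters of many lysosomal genes. In hepatocytes this machinery is known for turning over lipid droplets, glycogen and mitochondria.

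None of the 35 genes differed between the groups at an adjusted p under 0.05 by edgeR's quasi-likelihood test, and the count was also 0 by edgeR's exact test, DESeq2 and limma-voom. Over all genes tested, 0.0154% were called higher and 0.00769% lower by the quasi-likelihood test, which is 3 genes. The exact test called 120 genes and DESeq2 85, and limma-voom 2. The lowest adjusted p among the members was 0.362, for Cd63, and the next was 0.67, for Ctsh. At an unadjusted p under 0.05, 1 member (Cd63) was higher and 0 were lower, beside 4.04% of all genes higher and 3.39% lower. At the study's own threshold, a fold of at least 1.8 with an unadjusted p under 0.05, Cd63 was again the 1 member, and the background was 1.21% higher and 0.915% lower.

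The fitted differences of the members were small. Their median log2 fold change, HuRhKO over control, was 0.04, beside 0.0020 over all genes tested. Of the 35, 21 had a higher and 14 a lower fitted level in the libraries labelled HuRhKO, while 50.3% of all genes were on the higher side. The median size of the difference, whatever its sign, was 0.10 on the log2 scale, against 0.16 for all genes. All genes, here and below, were not matched to the members for level. Of the 35 members, 24 lay above the 75th percentile of level per kilobase, so this contrast does not show that they vary less than genes of like level. With Cd63 set aside, the differences ran from -0.13 for Lamp2 to 0.30 for Ctsl.

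These differences can be read against the spread between mice of a group. Between the 2 controls, the median member differed by 0.18 on the log2 scale, and between the 2 libraries labelled HuRhKO by 0.12. The 4 pairs made of 1 mouse from each group gave medians of 0.09 to 0.17. These 4 medians lay under that of the 2 controls, but the largest lay above that of the 2 libraries labelled HuRhKO. Over all genes tested, the median was 0.20 between the 2 controls and 0.18 between the 2 libraries labelled HuRhKO. The 4 pairs across groups gave 0.19 to 0.25 there.

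The precision of the fit bounds what could have been missed. Standard errors of the log2 fold changes lay between 0.122 and 0.217. For 34 of the 35 genes, all but Cd63, the 95% interval of the difference stayed within 1.8-fold in either direction. This was so for 67.6% of all genes tested, which were not matched to the members for level. The lowest bound among those 34 was -0.50, for Tfeb, and the highest 0.66, for Glb1. These intervals are not adjusted for the number of genes. With 2 mice against 2, an exact 2-sided permutation test of a single value cannot go below p = 0.333, so groups that do not overlap are given as a description.

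**Figure D1:**
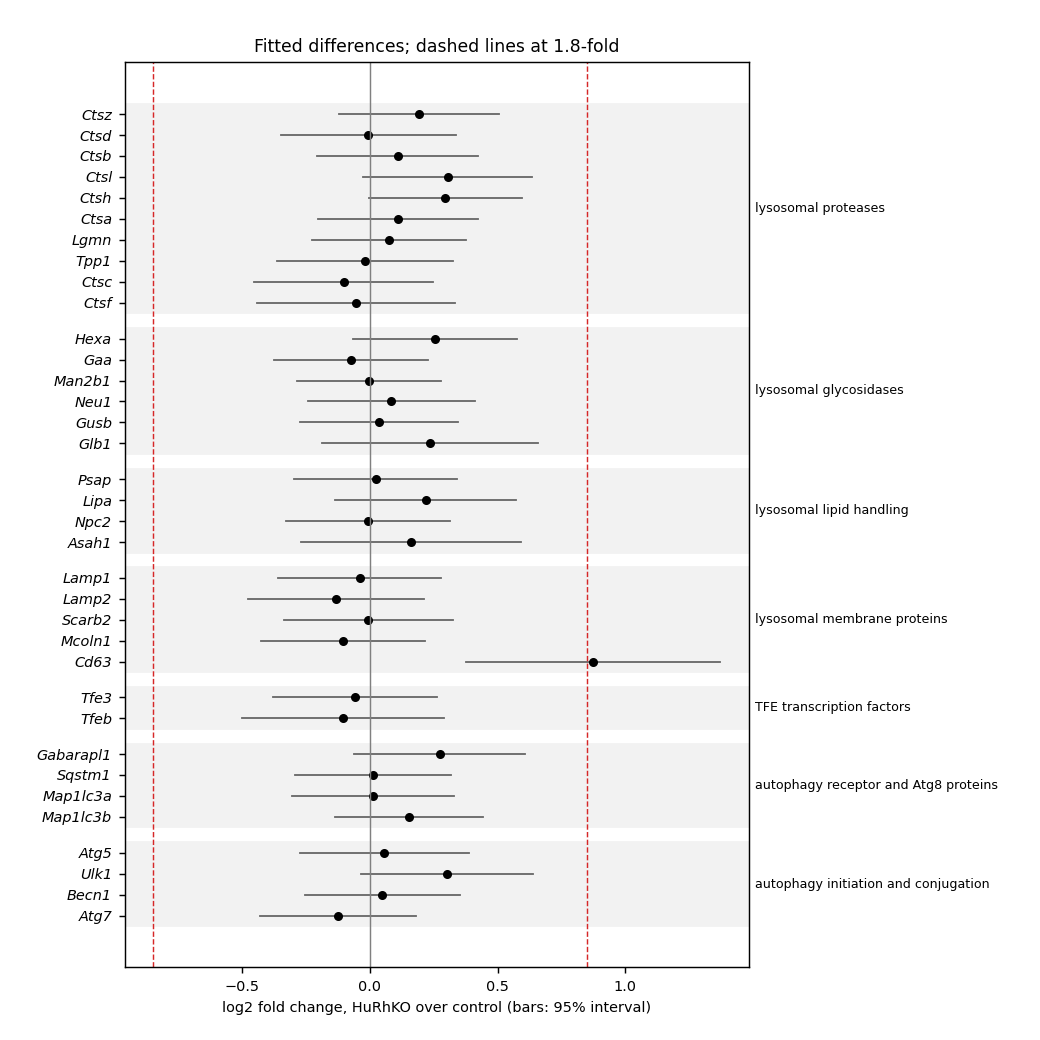
Fitted log2 fold change, libraries labelled HuRhKO over control, for the 35 genes grouped by role, with 95% intervals as bars and dashed lines at 1.8-fold. The interval of Cd63 lies above 0, and the intervals of the other 34 genes include 0 and stay between the dashed lines.

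Summed over the 35 genes, the level was 5512 and 5494 CPM in the control livers and 5767 and 5851 CPM in the libraries labelled HuRhKO. As a share of all counts, without TMM scaling, the groups overlapped, at 0.562% and 0.54% in the controls against 0.599% and 0.559%. The members were mostly well expressed for their length. In CPM per kilobase of exon, 24 of 35 lay above the 75th percentile of the genes tested, and their median percentile was 82.9. The highest mean levels per kilobase were those of Lamp1 (230.7), Psap (199.6) and Gabarapl1 (197.1), and the lowest those of Cd63 (2.02), Tfeb (2.12) and Tfe3 (2.24). Lamp1 stayed first and Cd63 last when the longest transcript replaced the merged exons as the length, while Psap and Gabarapl1 exchanged places.

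**Figure D2:**
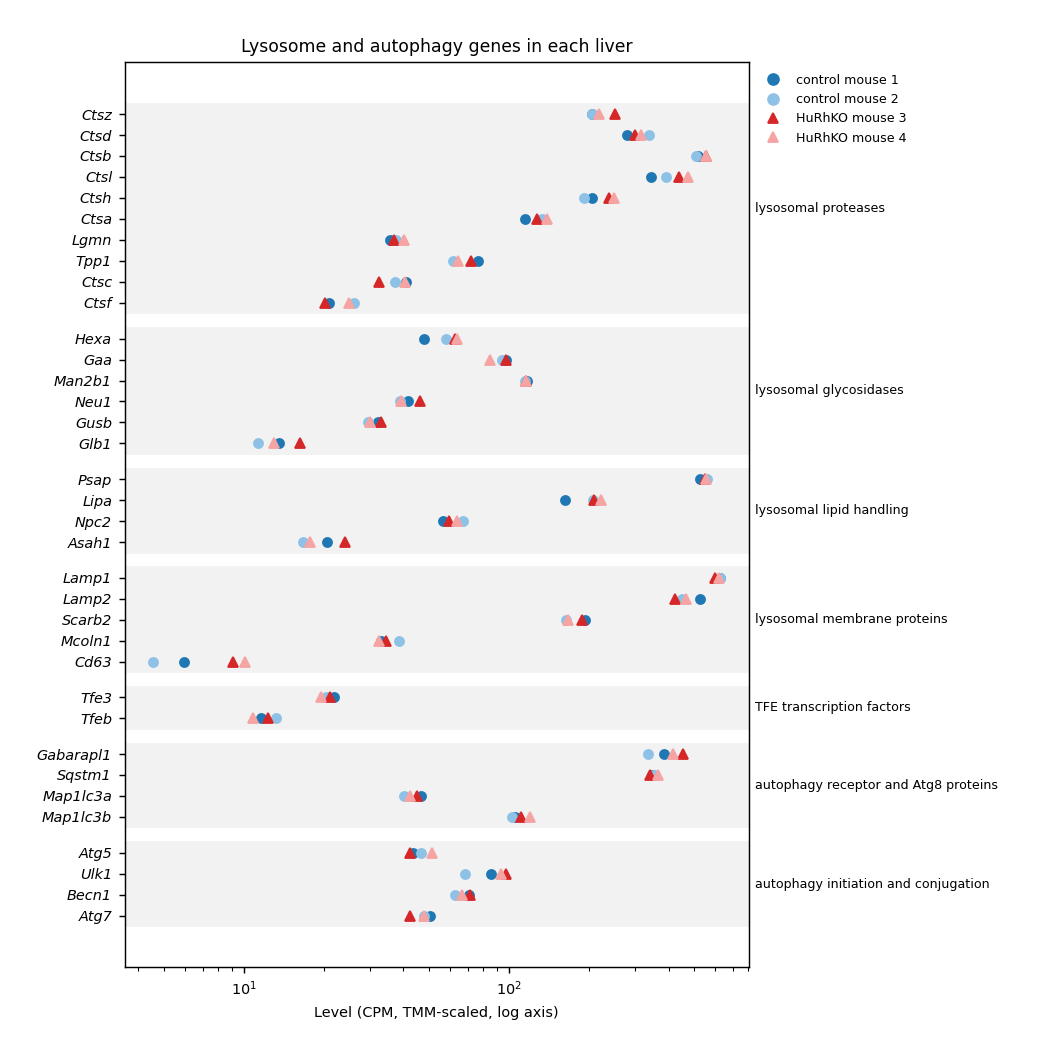
Level of each of the 35 genes in each of the 4 livers, in CPM scaled with TMM factors on a log axis, ordered by level per kilobase within each role. CPM is not divided by length, so levels can be compared across mice within a gene but not across genes. In most genes the control and HuRhKO symbols intermingle, and Cd63 has the widest gap between the groups.

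The regulators come first. Tfeb, on chr17:47737030-47792419, is the factor best known for driving lysosomal gene expression. It stood at 11.6 and 13.3 CPM in the controls and at 12.3 and 10.8 CPM in the libraries labelled HuRhKO, from 154 to 204 counts a library. Its groups overlapped, and the log2 fold change of -0.10 (SE 0.172, edgeR adjusted p = 0.917) had a 95% interval of -0.50 to 0.29. Tfe3, its relative on chrX:7762560-7775202, stood at 21.8 and 20.5 CPM in the controls and at 21.1 and 19.5 CPM in the libraries labelled HuRhKO. These values overlapped as well, with a log2 fold change of -0.06 (SE 0.140, edgeR adjusted p = 0.956) and an interval of -0.38 to 0.26. Transcript levels say nothing of where these proteins reside in the cell, which is how their activity is known to be controlled.

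Letters that TFEB and TFE3 bind were searched for in the members' promoters. RefSeq promoter windows on GRCm38.p6, from 250 bases before to 50 after the start that RefSeq gives a gene, were matched for 30 of the 35 genes. The 5 others were Ctsb, Ctsh, Map1lc3a, Asah1 and Becn1. TCACGTG on either strand was found in 8 of 30 members (26.7%), beside 4.29% of all 27025 genes with a window and 7.04% of the 9776 of them that were tested. The palindrome TCACGTGA was found in 3 members, beside 1.12% and 2.22%. The inner E-box CACGTG, which both of these contain, was found in 11 members (36.7%), beside 8.09% and 11.8%. The full 10-base palindrome of the CLEAR element was found in 0 members, beside 0.37% and 0.788%. A match describes letters in a window and is not evidence of binding. The 8 members that hold TCACGTG are shown in 30-base windows, on the gene's own strand, with the match in capitals (8 letters where the match extends to TCACGTGA).

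Ctsa (chr2:164833749-164833778, plus strand): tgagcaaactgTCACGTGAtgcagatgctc
Ctsd (chr7:142387908-142387937, minus strand): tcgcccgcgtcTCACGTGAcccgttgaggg
Mcoln1 (chr8:3500462-3500491, plus strand): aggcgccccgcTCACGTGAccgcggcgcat
Lamp1 (chr8:13159088-13159117, plus strand): agggcaagataTCACGTGgtccagcgccca
Glb1 (chr9:114401018-114401047, plus strand): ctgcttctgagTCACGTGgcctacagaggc
Gaa (chr11:119267811-119267840, plus strand): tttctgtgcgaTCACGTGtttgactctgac
Lgmn (chr12:102439124-102439153, minus strand): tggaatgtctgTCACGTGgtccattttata
Atg7 (chr6:114670952-114670981, plus strand): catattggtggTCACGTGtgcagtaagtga

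In these 8 genes the match began from position -141, in Gaa, to position -13, in Ctsa, counted from the RefSeq start of that window. In Ctsa and Atg7, among others, this start lies inside the gene's span in GENCODE M21, downstream of its first base. Their log2 fold changes ran from -0.12 for Atg7 to 0.24 for Glb1, with a median of -0.02, and 3 of the 8 were on the higher side. The 22 members with a window but without these letters had a median of 0.03, and 13 of them were on the higher side.

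The 10 lysosomal proteases, which include the cathepsins and the enzymes Lgmn and Tpp1, had 6 genes on the higher and 4 on the lower side, and their median log2 fold change was 0.09. In 4 of them, Ctsb, Ctsh, Ctsl and Ctsz, both libraries labelled HuRhKO lay above both controls. Over the whole list, 10 of 35 members were apart in this direction and 2 in the other, beside 19.3% and 18.8% of all genes tested.

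Ctsl, on chr13:64359337-64370890, encodes cathepsin L, a cysteine endopeptidase. It was measured at 344.7 and 391.5 CPM in the controls and at 436.6 and 472.8 CPM in the libraries labelled HuRhKO. Its log2 fold change of 0.30 (SE 0.144, 95% interval -0.03 to 0.63) did not pass the test (edgeR adjusted p = 0.68). Ctsh, on chr9:90054152-90076089, encodes cathepsin H, an aminopeptidase. Its values were 205.2 and 191.3 CPM in the controls and 237.9 and 248.6 CPM in the libraries labelled HuRhKO, with a log2 fold change of 0.30 (SE 0.130, edgeR adjusted p = 0.67). In both genes the groups were apart while the interval reached 0. The unadjusted p of Ctsl, 0.0658 in the edgeR fit, was 0.0367 with offsets for GC content and length, and that of Ctsh, 0.0516, was 0.0397 there.

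Cathepsin B (Ctsb), another abundant cysteine protease, stood at 518.1 and 506.8 CPM in the controls and at 552.9 and 552.2 CPM in the libraries labelled HuRhKO, a log2 fold change of 0.11. Ctsz, a carboxypeptidase, was at 206.3 and 205.5 CPM in the controls and at 251.7 and 219.0 CPM in the libraries labelled HuRhKO, a log2 fold change of 0.19. Cathepsin D (Ctsd), the main aspartic protease, overlapped between the groups at 278.5 and 338.4 CPM against 298.6 and 315.8 CPM. The fitted difference of Ctsd was -0.0059, among the smallest in the list. The adjusted p of these 3 genes was between 0.791 and 0.994.

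Of the other 5 proteases, Ctsa (0.11) and Lgmn (0.07) were on the higher side on the log2 scale, and Tpp1 (-0.02), Ctsf (-0.06) and Ctsc (-0.10) on the lower side. Ctsa is also the protective protein that keeps Neu1 and Glb1 in a complex, Lgmn is the asparaginyl endopeptidase, and Ctsc activates granule proteases. All 5 overlapped between the groups.

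The 6 glycosidases, which cleave sugars from glycogen, glycoproteins and glycolipids, had a median log2 fold change of 0.06. Of these, 4 were on the higher and 2 on the lower side. Hexa, the alpha subunit of beta-hexosaminidase, was the 1 whose groups were apart. It stood at 48.0 and 57.9 CPM in the controls and at 62.4 and 64.0 CPM in the libraries labelled HuRhKO, with a log2 fold change of 0.25 (SE 0.140, edgeR adjusted p = 0.723). Glb1, a beta-galactosidase, had a log2 fold change of 0.24 with overlapping groups, at 13.6 and 11.3 CPM against 16.3 and 13.1 CPM. With 1 mouse left out, the difference ran from 0.11 (without control mouse 1) to 0.40 (without control mouse 2) for Hexa. For Glb1 it ran from 0.052 (without mouse 3) to 0.39 (without mouse 4). The acid alpha-glucosidase Gaa, which degrades glycogen in lysosomes, had a log2 fold change of -0.07, at 97.5 and 94.4 CPM against 97.2 and 85.2 CPM. The alpha-mannosidase Man2b1 varied least, between 114.8 and 117.5 CPM over all 4 livers. Neu1, a sialidase, and Gusb, a beta-glucuronidase, had log2 fold changes of 0.08 and 0.04 with overlapping groups.

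In lipid handling, 3 of 4 genes were on the higher side and the median log2 fold change was 0.09. Lipa, the acid lipase that hydrolyses cholesteryl esters and triglycerides in lysosomes, stood at 163.0 and 208.1 CPM in the controls. In the libraries labelled HuRhKO it stood at 209.4 and 222.6 CPM, so the groups were apart, though the second control lay next to the lower of these. Its log2 fold change of 0.22 (SE 0.154, 95% interval -0.14 to 0.57) did not pass the test (edgeR adjusted p = 0.79). It was 0.041 without control mouse 1 and 0.41 without control mouse 2. Npc2, which carries cholesterol out of lysosomes, overlapped at 56.5 and 67.3 CPM against 59.2 and 63.9 CPM, a log2 fold change of -0.0071. Psap, the precursor of the saposins, overlapped between 527.0 and 560.0 CPM, and the acid ceramidase Asah1 between 16.8 and 24.0 CPM. Their log2 fold changes were 0.02 and 0.16.

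The 5 membrane proteins split, with Cd63 higher and the other 4 on the lower side. Lamp1 and Lamp2 are the heavily glycosylated proteins that line the lysosomal membrane. Lamp1 was at 627.9 and 623.2 CPM in the controls and at 598.1 and 618.8 CPM in the libraries labelled HuRhKO. Its groups were apart by a margin smaller than the spread within the libraries labelled HuRhKO, with a log2 fold change of -0.04 (SE 0.139). Lamp2, on chrX:38401357-38456454, was at 524.5 and 449.5 CPM against 423.3 and 465.4 CPM. Its log2 fold change of -0.13 (SE 0.149, edgeR adjusted p = 0.878) was the lowest of the list, and its groups overlapped.

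Mcoln1, the calcium channel of the lysosomal membrane, on chr8:3500457-3515232, was at 33.0 and 38.7 CPM in the controls and at 34.3 and 32.4 CPM in the libraries labelled HuRhKO. The groups overlapped, and the log2 fold change was -0.10 (SE 0.140, edgeR adjusted p = 0.901). Scarb2, the receptor that carries glucocerebrosidase to lysosomes, was between 163.8 and 193.4 CPM in the 4 livers, with a log2 fold change of -0.0058.

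Cd63, on the plus strand of chr10:128900989-128912822, encodes a tetraspanin of late endosomes, lysosomes and exosomes. It had 79 and 61 counts in the controls and 131 and 190 counts in the libraries labelled HuRhKO. In CPM these were 5.95 and 4.55 against 9.14 and 10.1, so that the groups were apart by more than the spread within either. The means were 5.25 ± 0.984 CPM (SD, n = 2) and 9.61 ± 0.67 CPM (SD, n = 2), a 1.83-fold difference. The log2 fold change was 0.87 (SE 0.217, 95% interval 0.38 to 1.37), with an unadjusted p of 0.0036 and an adjusted p of 0.362 in the edgeR fit. Both libraries labelled HuRhKO showed the direction, and the difference did not pass the correction for all genes tested.

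The size of the Cd63 difference was close to the study's threshold of 1.8-fold, which is 0.85 on the log2 scale. Leaving out control mouse 2 gave 0.70, leaving out mouse 4 gave 0.80, and correcting for GC content and gene length gave 0.81, each short of that threshold. Over the 4 fits that each left out 1 mouse, the log2 fold change ran from 0.70 to 1.07. A processed pseudogene, Cd63-ps, is listed separately with 1 and 3 counts in the controls and 5 and 6 counts in the libraries labelled HuRhKO. How reads shared with it were assigned is not given in the sources used here.

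Cd63 is expressed by many cell types, and it was the least abundant member per kilobase. Of 8 markers of monocyte-derived macrophages, 5 were tested, with 4 on the higher and 1 on the lower side. In 5 of the 8 markers of that list both libraries labelled HuRhKO lay above both controls, and 0 lay below. Of the 5 markers that were apart, 3 were among the genes tested and the others had too few counts to pass the filter. Its summed level was 43.3 and 32.0 CPM in the controls and 54.8 and 54.7 CPM in the libraries labelled HuRhKO, and 0 of its markers were at 0 in every liver. Most of that sum came from Spp1, singled out after its values were seen, at 31.5 and 22.3 against 34.8 and 41.9 CPM. At an unadjusted p under 0.05 by edgeR's quasi-likelihood test, 3 of the 5 tested markers were higher and 0 lower. Over all genes tested, 4.04% were higher and 3.39% lower at that threshold. The 3 were Spp1, Cd9 and Trem2, of which Trem2 had few counts, 4 and 2 in the controls against 12 and 15. Spp1 is also on the list of cholangiocyte markers, whose sums overlapped at 52.8 and 27.5 against 39.6 and 49.8 CPM. Of the 14 markers of Kupffer cells and macrophages, 6 were apart in the higher and 1 in the lower direction, with sums of 327.1 and 342.4 CPM against 365.8 and 348.4 CPM. The shares over all genes tested were 19.3% and 18.8%. The general macrophage markers went different ways, with Adgre1 at 8.43 and 9.18 against 6.21 and 9.03 CPM and Cd68 at 3.31 and 5.08 against 5.79 and 5.42 CPM. Clec4f, a Kupffer cell marker, was at 60.0 and 52.5 against 67.3 and 68.0 CPM. The part of these cells in the Cd63 difference was not tested.

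Hepatocyte markers were abundant in every liver, with Alb between 40983 and 45366 CPM. The sum of the list was 88533 and 83256 CPM in the controls and 82207 and 91522 CPM in the libraries labelled HuRhKO, so the groups overlapped. Stellate cell markers summed to 238.3 and 222.8 CPM against 242.6 and 305.9 CPM, and endothelial markers to 266.3 and 227.8 CPM against 296.1 and 263.2 CPM. Of 9 stellate cell markers, 7 were on the higher and 2 on the lower side, and all 8 endothelial markers were on the higher side. Groups were apart in the higher direction in 4 stellate cell and 3 endothelial markers, and in the lower in 0 of either list. Over all genes tested, these shares were 19.3% and 18.8%. The part of these cells in the Cd63 difference was not tested either.

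**Figure D3:**
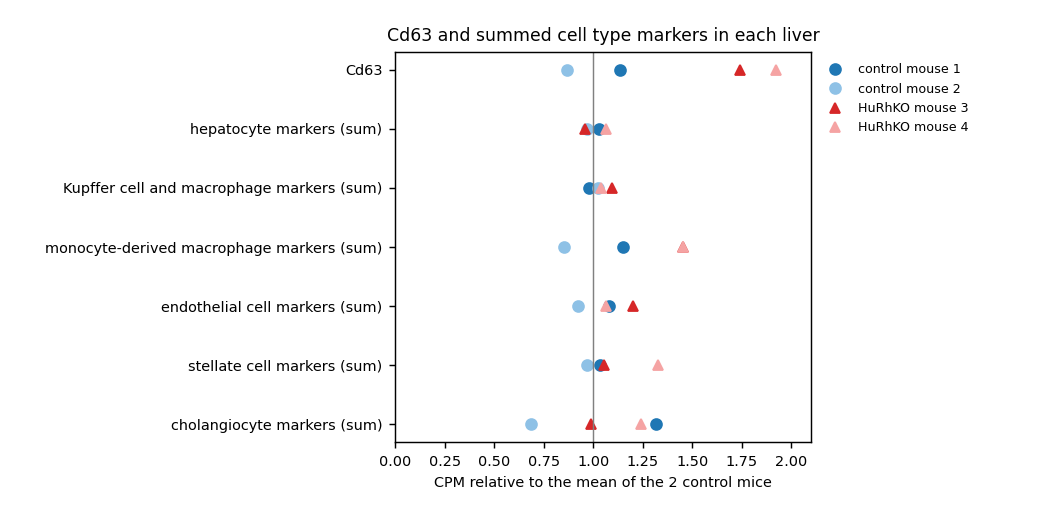
Level of Cd63 and summed levels of 6 cell type marker lists in each liver, in CPM divided by the mean of the 2 control mice (vertical line at 1). Cd63 lies at 1.74 and 1.92 in the libraries labelled HuRhKO and at 1.13 and 0.868 in the controls, and the sum of the monocyte-derived macrophage markers lies at 1.45 in both libraries labelled HuRhKO.

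The autophagy receptor Sqstm1, which links ubiquitinated cargo to the forming membrane, was at 347.8 and 351.2 CPM in the controls and at 340.0 and 365.0 CPM in the libraries labelled HuRhKO. Its log2 fold change was 0.01 (SE 0.134, 95% interval -0.29 to 0.32), and the controls lay between the 2 other livers. Sqstm1 protein is itself degraded by autophagy, and these values concern its transcript only.

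The 3 Atg8-family genes encode the ubiquitin-like proteins that are conjugated to the autophagosome membrane. Gabarapl1, on chr6:129533160-129542346, was at 384.8 and 333.8 CPM in the controls and at 452.1 and 416.0 CPM in the libraries labelled HuRhKO. Its groups were apart, and its log2 fold change of 0.27 (SE 0.145, 95% interval -0.06 to 0.61) did not pass the test (edgeR adjusted p = 0.713). Map1lc3b, the LC3 gene most often followed in autophagy assays, on chr8:121590361-121598760, was at 105.1 and 102.7 CPM against 111.0 and 120.1 CPM. It was also apart, with a smaller log2 fold change of 0.15 (SE 0.125, edgeR adjusted p = 0.826). Map1lc3a, on chr2:155276297-155278073, overlapped at 46.7 and 40.1 CPM against 45.1 and 42.5 CPM, and its log2 fold change of 0.01 turned to -0.17 with offsets for GC content and length.

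Of the genes that start autophagy, Ulk1 had the largest difference. Ulk1, on chr5:110784488-110810097, encodes the kinase that initiates autophagosome formation. It was at 85.8 and 68.4 CPM in the controls and at 97.2 and 93.0 CPM in the libraries labelled HuRhKO. The groups were apart, and the log2 fold change of 0.30 (SE 0.147, 95% interval -0.03 to 0.64) did not pass the test (edgeR adjusted p = 0.684). The 2 controls differed from each other by more than control mouse 1 differed from either library labelled HuRhKO. The Ulk1 difference was 0.46 without control mouse 1 and 0.15 without control mouse 2.

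Becn1, a subunit of the lipid kinase complex that acts after Ulk1, overlapped between 62.7 and 71.6 CPM with a log2 fold change of 0.05. Atg5, part of the conjugation machinery for Atg8-family proteins, overlapped between 42.3 and 51.2 CPM with a log2 fold change of 0.06. Atg7, the E1-like enzyme of the same machinery, on chr6:114643097-114860614, was at 50.2 and 48.0 CPM in the controls and at 42.3 and 47.7 CPM in the libraries labelled HuRhKO. Its groups were apart in the lower direction by a narrow margin, with a log2 fold change of -0.12 (SE 0.132, edgeR adjusted p = 0.869).

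Several members share exon bases with another annotated gene, and how the counting treated strand is not given in the sources used here. Taken for 1 partner at a time, the shares were 43.9% of the exon bases of Becn1 (with Cntd1) and 34.4% of Ctsd. They were 28.3% of Gabarapl1 and 26.8% of Ctsl, and at most 17.3% in each of the others. Cntd1, on the opposite strand to Becn1, had 1 to 3 counts in each library, and the transcript opposite Gabarapl1 had 0 to 9. Among the lower shares, some partners on the opposite strand were well expressed. Fdft1 shared 12.8% of Ctsb and had 630 to 1062 counts, and Pltp shared 10.5% of Ctsa and had 421 to 737. The partners of Ctsd and Ctsl had no row in the table used here, so reads of these 2 genes cannot be divided further.

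The wider pathway was read from 7 lists that hold 207 other genes, of which 200 were tested. By edgeR's quasi-likelihood test, 0 of the 200 differed at an adjusted p under 0.05. At an unadjusted p under 0.05, 7 were higher and 3 lower, beside the 4.04% and 3.39% of all genes given above. Their median log2 fold change was 0.03, with 114 on the higher and 86 on the lower side.

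The 41 other lysosomal hydrolases had a median log2 fold change of 0.0100, with 22 on the higher side. Of these, 2 had an unadjusted p under 0.05, both higher. Ppt1, a palmitoyl-protein thioesterase, was at 19.3 and 17.5 CPM in the controls and at 23.3 and 27.1 CPM in the libraries labelled HuRhKO, a log2 fold change of 0.45 (SE 0.148, edgeR adjusted p = 0.542). Dpp7, a dipeptidyl peptidase, was at 16.3 and 19.5 CPM against 24.6 and 23.6 CPM, a log2 fold change of 0.43 (SE 0.149, edgeR adjusted p = 0.574). In both genes the groups were apart.

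Of 36 other membrane proteins linked to lysosomes, 32 were tested, 19 of them on the higher side, and the median log2 fold change was 0.05. At an unadjusted p under 0.05, 2 were higher, Cln6 (0.78) and Mfsd12 (0.43), and 2 were lower, Mfsd8 (-0.52) and Abca2 (-0.48), with adjusted p from 0.587 to 0.633. Cln6, best known for its loss in a form of Batten disease, was at 4.06 and 3.36 CPM against 7.95 and 4.94 CPM. Its difference was 0.39 without mouse 3 and 1.10 without mouse 4. Mfsd8, a transporter of the lysosomal membrane that is likewise lost in a form of Batten disease, was at 11.8 and 10.2 CPM against 8.37 and 6.95 CPM. Abca2 was at 48.2 and 34.9 CPM against 27.0 and 32.5 CPM, and without control mouse 1 its difference was -0.24.

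The V-ATPase is the proton pump that acidifies lysosomes. Of its 20 tested genes, 17 were on the higher and 3 on the lower side, and the median log2 fold change was 0.10. Groups were apart in the higher direction in 9 genes and in the lower in 3. Over all genes tested, 50.3% were on the higher side, and 19.3% were apart in the higher and 18.8% in the lower direction. Atp6v0e, a small membrane subunit, was at 31.7 and 36.9 CPM in the controls and at 43.7 and 44.6 CPM in the libraries labelled HuRhKO, a log2 fold change of 0.37 (edgeR adjusted p = 0.591). Atp6v0d2, an alternative d subunit known from osteoclasts and macrophages, had 11 and 20 counts against 23 and 86 counts. Its log2 fold change of 1.43 (SE 0.558, edgeR adjusted p = 0.613) was past the 1.8-fold threshold, and it was 0.46 without mouse 4, so that this size rested on 1 library.

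Of the genes with an unadjusted p under 0.05 in these 3 lists, Dpp7 and Atp6v0e had TCACGTGA in a promoter window. The others, Ppt1, Cln6, Mfsd12, Mfsd8, Abca2 and Atp6v0d2, had no such match or no window. The 2 matches are shown like those of the members. The same letters were found in 4 of 31 other hydrolases, 5 of 29 other membrane proteins and 3 of 15 V-ATPase genes with a window. They were found in 1.12% of all genes with a window and 2.22% of those tested. A link between these letters and the differences was not tested.

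Dpp7 (chr2:25356388-25356417, minus strand): ccgccagactaTCACGTGAtgctgccccgc
Atp6v0e (chr17:26676387-26676416, plus strand): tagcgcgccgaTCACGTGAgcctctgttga

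The other 4 lists held 2 genes with an unadjusted p under 0.05. Mannose 6-phosphate tagging and sorting, which brings hydrolases to lysosomes, had 9 of 18 genes on the higher side and a median log2 fold change of 0.0042. Gnptab, the phosphotransferase that begins the tagging, was at 12.1 and 11.2 CPM in the controls and at 8.51 and 8.65 CPM in the libraries labelled HuRhKO, a log2 fold change of -0.44 (SE 0.171, edgeR adjusted p = 0.611). Other autophagy machinery had 18 of 38 genes on the higher side, with a median of -0.01, and the autophagy receptors 7 of 15, with a median of -0.03. In neither list did a gene have an unadjusted p under 0.05.

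Regulators of mTORC1 at the lysosome, the kinase complex that holds TFEB and Ulk1 in check in fed cells, had 22 of 36 genes on the higher side and a median log2 fold change of 0.06. Fnip2, a partner of folliculin, was at 33.5 and 32.9 CPM in the controls and at 39.1 and 47.8 CPM in the libraries labelled HuRhKO. Its log2 fold change of 0.39 (SE 0.146, edgeR adjusted p = 0.587) was the 1 in that list with an unadjusted p under 0.05.

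**Figure D4:**
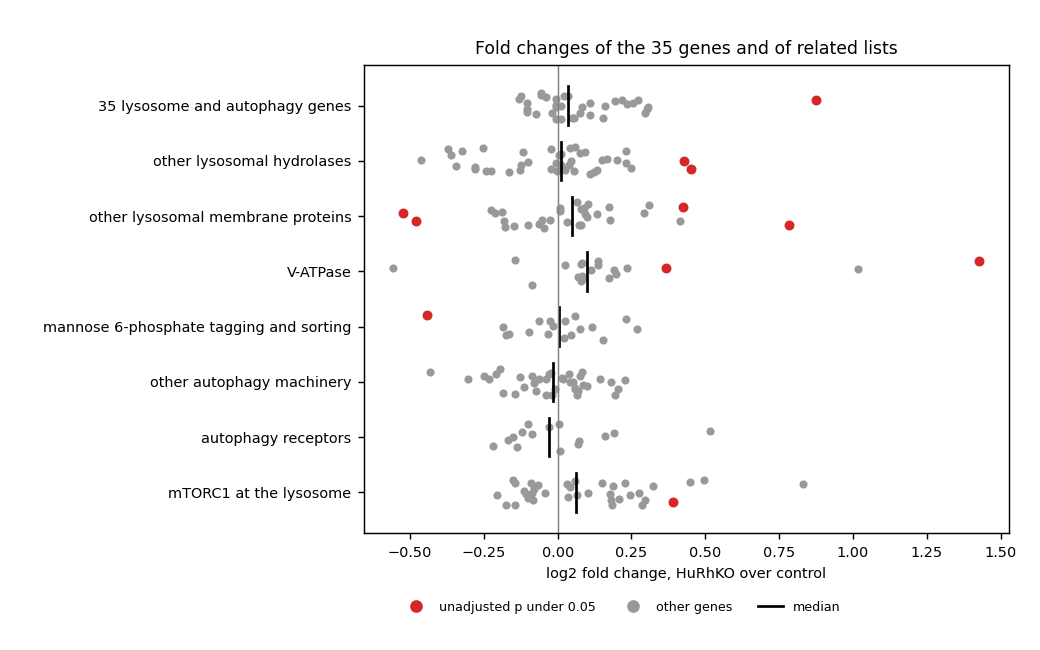
Log2 fold change, libraries labelled HuRhKO over control, of the 35 genes and of the tested genes in 7 related lists, with the list's median as a black line. Red points have an unadjusted p under 0.05, and none passes after adjustment. The medians lie between -0.03 for the autophagy receptors and 0.10 for the V-ATPase, and the 34 genes other than Cd63 lie between -0.13 and 0.30.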

How the data were processed

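RNA was sequenced from 4 livers, 2 in each group, numbered as mice 1 and 2 (control) and 3 and 4 (HuRhKO) by the labels. The authors deposited raw counts per Ensembl gene, as whole numbers with no normalization. The submitters' processing notes name RSEM and GRCm38 without their role, so whether the whole numbers are rounded estimates is unknown, and the aligner and the use of strand are not given in the sources used here. The libraries held 13032095, 13615761, 13806773 and 19715577 counts. Of 46603 identifiers, 46005 matched a symbol in GENCODE M21. No columns were left without a sample (0).

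Counts were filtered with filterByExpr (minimum count 10, minimum total 15), scaled with TMM factors and fitted with edgeR 4.0.16 (limma 3.58.1, R 4.3.3) by the quasi-likelihood test, without covariates, with Benjamini-Hochberg adjustment over 13001 genes and a threshold of 0.05. The p-values rest on the spread between mice of a group, with each gene's spread moderated by that of the other genes. Standard errors were not given by edgeR and were derived from the log2 fold change and the F statistic of the quasi-likelihood test. Intervals are 95% and use these approximate standard errors. No test was run on a list as a whole. Levels per kilobase divide CPM by the merged exon length, and the longest transcript was added as another length after the data were seen. The members and lists were chosen with earlier results of these data known. Values are given in every mouse for members with an unadjusted p under 0.05, the 3 largest and the 3 smallest log2 fold changes, Tfeb, Tfe3 and the Atg8-family genes, for other members where their role called for it, and for at most 5 genes of each other list with an unadjusted p under 0.05. Of 207 other pathway genes, 206 matched, and Marchf8 did not.

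Promoter windows were from RefSeq (GRCm38.p6), searched on both strands with Python 3.11.15. The letters TCACGTGA, TCACGTG and CACGTG, and the 10-base palindrome of the CLEAR element, overlap one another. Protein sequences were not used here. Alternatives were DESeq2 1.42.0, limma-voom, edgeR's exact test, a robust fit, DESeq2 size factors, upper quartile factors, library totals without TMM, no filter, a stricter filter, offsets for GC content and length, and leaving out each mouse. In data simulated from these libraries (12786 genes, 200 of them changed), the test recovered 93.0% of the 4-fold and 67.4% of the 2-fold changes, and 11.7% of its calls were false.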

Additional observations from a re-analysis of the deposited data

How the results depend on the processing

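No member was called at an adjusted p under 0.05 under any of 14 alternative settings (0 in each, beside 1 member at an unadjusted p under 0.05 in the fit as reported). The members' median log2 fold change stayed between 0.02 and 0.04 over the 10 settings that kept all mice and between 0.03 and 0.07 with 1 mouse left out. Of 35 members, 29 kept their direction over those 10 settings and 17 over all 14. Members higher at an unadjusted p under 0.05 numbered 3 with offsets for GC content and length (Cd63, Ctsh and Ctsl), 2 with library totals without TMM (Cd63 and Ctsl) and 2 by limma-voom (Cd63 and Ctsh). With 1 mouse left out they numbered 1 to 2, with Ulk1 added without control mouse 1 and Hexa without control mouse 2. Members past the study's threshold numbered 0 with offsets for GC content and length and 0 to 1 with 1 mouse left out. The adjusted p of Cd63 ran from 0.0637 to 0.489 over the 10 settings and from 0.201 to 0.999 with 1 mouse left out. The causes of these shifts were not tested. Over all genes, calls at an adjusted p under 0.05 numbered 3 as reported, 85 by DESeq2, 120 by the exact test, 161 with no filter, 8 with the robust fit, 8 with library totals and 0 to 73 with 1 mouse left out.

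The offsets for GC content and length turned the log2 fold changes of Gusb (-0.0026), Map1lc3a (-0.17), Psap (-0.039), Scarb2 (0.056), Sqstm1 (-0.045) and Tpp1 (0.0046), and leaving out the filter turned Map1lc3a (-0.00060). Leaving out 1 mouse turned 18 genes, whose ranges were as follows. Among the proteases the ranges were -0.0051 to 0.22 for Ctsa, -0.27 to 0.029 for Ctsc, -0.15 to 0.14 for Ctsd, -0.21 to 0.11 for Ctsf and -0.17 to 0.14 for Tpp1. Among the glycosidases they were -0.19 to 0.021 for Gaa, -0.052 to 0.11 for Gusb and -0.061 to 0.20 for Neu1. For lipid handling they were -0.083 to 0.36 for Asah1, -0.14 to 0.13 for Npc2 and -0.033 to 0.069 for Psap. For membrane proteins and regulators they were -0.23 to 0.017 for Mcoln1, -0.12 to 0.11 for Scarb2 and -0.13 to 0.00074 for Tfe3. For autophagy they were -0.089 to 0.17 for Atg5, -0.036 to 0.13 for Becn1, -0.093 to 0.11 for Map1lc3a and -0.039 to 0.046 for Sqstm1. Among the 17 genes that kept their direction, differences that moved by over 1.5 times included those in the ranges 0.20 to 0.40 for Ctsl, 0.072 to 0.29 for Ctsz, 0.18 to 0.37 for Gabarapl1, -0.24 to -0.03 for Lamp2, -0.22 to -0.058 for Atg7 and -0.22 to -0.0012 for Tfeb. These fits leave 1 group with a lone mouse, assumed to vary like the others. No paired analysis was possible because the mice are numbered 1 to 4 and the groups share no number. With 2 mice a group, small differences could not be resolved.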
